A study of Mus musculus with 6 samples.

Results

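The solute carrier genes that move amino acids, small peptides and related compounds across membranes were followed in aortas of apoE-/- mice, which lack the lipoprotein ligand apolipoprotein E. Members were all probe sets whose single platform gene symbol begins with Slc1a, Slc3a, Slc6a, Slc7a, Slc15a, Slc36a, Slc38a or Slc43a followed by a digit. The rule found 133 of the 45101 probe sets, for 68 genes, of which 3 (Slc7a6os, Slc36a1os and Slc6a19os) are named for lying opposite a transporter gene and are not carriers themselves. Total RNA of aortas at 32 weeks of age was hybridised to 3 arrays from apoE-/- mice on the C57BL/6J background and to 3 arrays from wild type C57BL/6J mice. Neither group is labelled with a treatment, and the labels give no diet, sex, tissue dissection or pooling, so it is not known whether an array stands for 1 animal or several. The p-values therefore cover array-to-array spread, part or all of which could be technical. In whole aorta, fewer cells of a type and less RNA per cell cannot be told apart.

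Cells take up amino acids through families of carriers with different couplings. SLC1 carriers move glutamate or small neutral amino acids with sodium, and SLC6 carriers move neurotransmitters, amino acids, taurine or creatine with sodium and chloride. SLC7 carriers are exchangers or uniporters, many of which need a heavy chain of the SLC3 family to reach the cell surface. SLC15 carriers move di- and tripeptides with protons, SLC36 carriers move small amino acids with protons out of lysosomes or into cells, SLC38 carriers move glutamine and other neutral amino acids, and SLC43 carriers move large neutral amino acids or nucleobases by facilitated diffusion. In macrophages, which digest lipoproteins and dead cells in atherosclerotic plaques, lysosomal carriers release the products of protein breakdown into the cytosol.

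Array medians lay between 178 and 195.5 units of the deposited linear intensity. The apoE-/- arrays gave 239.5, 56.3 and 462.1 units for Apoe, against 5686, 5625 and 4309 units on the wild type arrays, which checks the labels. Smooth muscle markers were present on every array, with a summed intensity of 78124 to 92987 units in apoE-/- and 89062 to 100774 units in wild type aorta (12 of 12 genes tested, none called by limma and 4 with an unadjusted p under 0.05). No share of all genes at that unadjusted level is given here. None of the 12 had a positive log2 change, and their median was -0.15, against -0.05 over all genes tested. In 5 of them the apoE-/- values lay wholly below the wild type values, beside 13.7% of all genes tested. Markers of other tissues set single arrays apart. The brown adipocyte list (7 of 8 genes tested) summed to 13221 to 18646 units in apoE-/- against 15136 to 32576 units in wild type, with the highest sum on wild type replicate 2. The list for liver, gut and kidney epithelium (5 of 10 genes tested) summed to 619 to 19114 units in apoE-/- against 1257 to 3438 units in wild type. Its highest sum was on apoE-/- replicate 3, and Lgals4 was called lower (log2 change -1.31, limma adjusted p = 0.022). Skeletal muscle markers (9 of 12 tested) reached 27156 units on wild type replicate 3. They summed to 2885 and 2768 units on wild type replicates 1 and 2, and to 1395 to 1710 units in apoE-/-. Of the 9, 6 had apoE-/- values wholly below wild type, beside 13.7% of all genes tested. Casq1 alone was called, as lower (log2 change -1.08, limma adjusted p = 0.00746), beside 0.467% of all genes tested.

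Of the 68 genes, 43 had a probe set above the filter, which left out the lower 40% of probe sets by mean intensity, and were tested. In apoE-/- aorta 4 of them were called higher, Slc15a3, Slc43a2, Slc6a6 and Slc7a7, and 1 was called lower, Slc1a5. Among all 13052 genes tested with limma, 3.19% were called higher, 0.467% lower and 3.65% in either direction at a Benjamini-Hochberg adjusted p under 0.05. The 38 other tested members had log2 changes between -0.86 (Slc6a21) and 0.82 (Slc36a1), and 30 of them had a change smaller than 0.3 in size. All log2 changes are differences of mean log2(intensity + 16), apoE-/- minus wild type, and a gene named as called passed that threshold. The median log2 change of the 43 was -0.04, against -0.05 over all genes tested. In 7 of the 43 the apoE-/- values lay wholly above the wild type values and in 6 wholly below, where all tested genes gave 11.0% and 13.7%. With no filter on dim signal, 4 of the 68 genes were called higher and 1 lower, beside 1.79% and 0.225% of 18193 genes, and Slc3a1 then stood among the higher genes in place of Slc7a7. Over these 68 genes, 11 had apoE-/- values wholly above and 7 wholly below wild type, beside 9.30% and 12.4% of all genes. The number of members called higher was 2 without apoE-/- replicate 1, apoE-/- replicate 3, wild type replicate 1 or wild type replicate 3, it was 3 without wild type replicate 2, and it was 7 without apoE-/- replicate 2, which added Slc36a1, Slc3a2 and Slc6a8. Slc1a5 was called lower in each of these repeats. The number of all genes called higher also changed widely with the array left out, over the range given at the end. No share of all genes is set beside each count here, so the counts do not set the transporters apart.

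**Figure D1:**
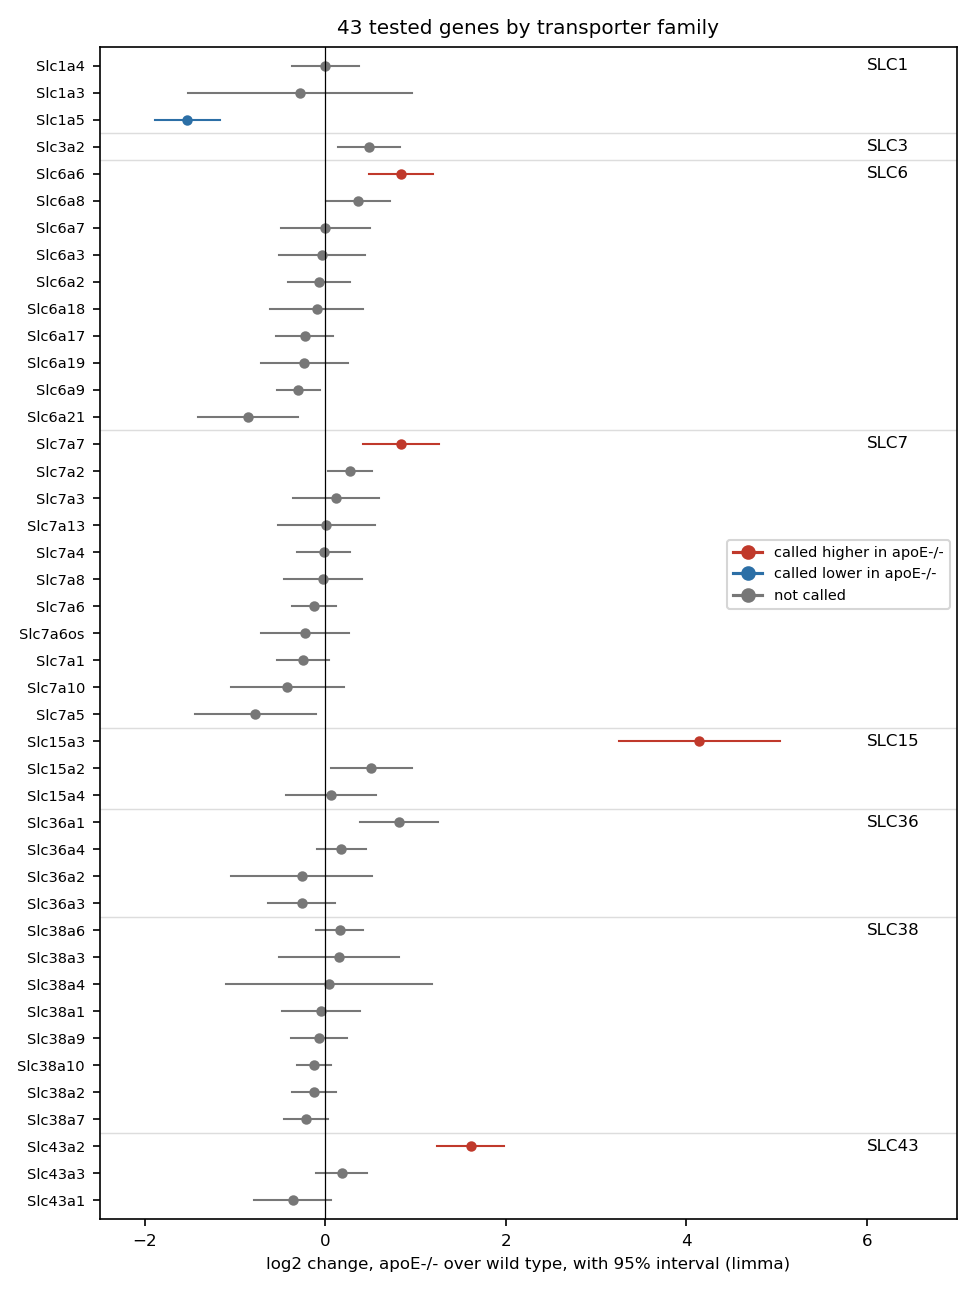
Log2 change of the 43 tested genes, apoE-/- over wild type, by transporter family, with the 95% interval of the limma fit as a line (n = 3 arrays each). Slc15a3 at 4.15 stands apart from all others, Slc43a2, Slc6a6 and Slc7a7 are the other called rises, and Slc1a5 at -1.53 is the called fall.

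Slc15a3, a proton-coupled carrier of histidine and small peptides in the membrane of lysosomes and endosomes, had the largest change of the 43 genes. Its only probe set read 1221, 590.2 and 1767 units on the apoE-/- arrays, against 72.2, 42.8 and 30.4 units on the wild type arrays. Every apoE-/- array was far above every wild type array, and apoE-/- replicate 2 was the lowest of its group. The log2 change was 4.15 ± 0.39 (SE, limma adjusted p = 0.00143). The wild type values lie under the mean of 124.15 units at which probe sets were filtered, so the gene passed through its apoE-/- signal. They are not shown to be above background, and the size of the rise depended on the log offset, at 4.54 with an offset of 1 and 3.38 with 64. It was called in all 16 alternatives tried.

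The other peptide carriers of the family gave smaller or dimmer signals. Slc15a4, the closest relative in function, carries histidine and peptides out of endolysosomes and, in immune cells, serves signalling of nucleic acid receptors there. It read 570.0, 420.9 and 747.0 units in apoE-/- against 592.6, 614.1 and 431.1 units in wild type, so the groups overlapped, and its log2 change was 0.06 with a 95% interval from -0.43 to 0.56 (limma adjusted p = 0.909). Slc15a2, the high-affinity peptide carrier of kidney and brain, had 3 kept probe sets that disagreed on the call. The brightest, which stood for the gene, read 404.5, 417.7 and 295.2 units in apoE-/- against 226.6, 225.1 and 318.6 units in wild type, with overlap (log2 change 0.51 ± 0.20, SE, limma adjusted p = 0.215). The second brightest by its mean over all arrays read 429.4, 350.6 and 339.9 units in apoE-/- against 181.4, 159.0 and 234.9 units in wild type, and was called higher in the fit over all probe sets (log2 change 0.92 ± 0.18, SE, limma adjusted p = 0.0334). In that fit, 6 of the 80 kept member probe sets were called higher and 1 lower, beside 2.51% and 0.281% of 27022 probe sets. The Slc15a2 call was lost with no filter (adjusted p = 0.0707), and when any array other than wild type replicate 3 was left out. A fit with replicate number as a further term lost it as well. The third kept probe set read 273.7, 351.6 and 236.3 units in apoE-/- against 135.8, 205.8 and 188.8 units in wild type, with groups apart and a change of 0.65 ± 0.21 in log2 (SE, limma adjusted p = 0.171). The intestinal carrier Slc15a1 (14.2 to 46.2 units in apoE-/- against 33.8 to 62.0 units in wild type) and Slc15a5 (10.9 units or less on every array) were under the filter.

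Slc43a2 (LAT4), a uniporter of leucine, isoleucine, phenylalanine and methionine, rose on its brightest probe set. That probe set read 1074, 830.7 and 1061 units in apoE-/- aorta, against 310.2, 370.5 and 259.0 units in wild type. The lowest apoE-/- array was above the highest wild type array by more than the whole range of either group. The log2 change was 1.61 ± 0.16 (SE, limma adjusted p = 0.00183), and it was called in all 16 alternatives. A further kept probe set read 177.1, 131.0 and 216.5 units in apoE-/- against 148.1, 67.8 and 155.2 units in wild type, with overlap (log2 change 0.50 ± 0.32, SE, limma adjusted p = 0.485). With the median of both kept probe sets the log2 change was 1.055 (limma adjusted p = 0.0152). Its relatives did not pass the test. Slc43a1 (LAT3), with the same class of substrates, read 242.3, 307.9 and 244.5 units in apoE-/- against 310.9, 438.1 and 295.0 units in wild type (log2 change -0.36, 95% interval -0.79 to 0.07). Slc43a3, a purine nucleobase carrier, averaged 1495 ± 149 units in apoE-/- and 1317 ± 158 units in wild type (SD, n = 3 each, log2 change 0.18, limma adjusted p = 0.475).

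Slc7a7 (y+LAT1), which exports cationic amino acids such as arginine in exchange for neutral amino acids and sodium, rose on both of its probe sets. The brighter read 495.5, 438.7 and 621.9 units in apoE-/-, against 230.8, 280.7 and 340.4 units in wild type. The other read 375.5, 316.5 and 493.6 units in apoE-/-, against 209.4, 192.1 and 184.9 units in wild type. The groups were apart on each probe set. The gene's log2 change was 0.84 ± 0.18 (SE, limma adjusted p = 0.0459), and the second probe set gave 0.94 ± 0.18 (SE, limma adjusted p = 0.0296 over all probe sets). The gene's call held in 8 of 16 alternatives and was lost without apoE-/- replicate 1 (adjusted p = 0.145), apoE-/- replicate 3 (0.178), wild type replicate 1 (0.132), wild type replicate 2 (0.102) or wild type replicate 3 (0.0566), where the log2 change lay between 0.70 and 0.97.

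Slc3a2 (4F2hc, CD98), the heavy chain that y+LAT1, LAT1 and several other SLC7 light chains need at the cell surface, read 2664, 1912 and 2736 units in apoE-/-, against 1854, 1801 and 1517 units in wild type. The groups did not overlap, but apoE-/- replicate 2 came close to the highest wild type array. The log2 change was 0.48 ± 0.15 (SE, limma adjusted p = 0.139), and without apoE-/- replicate 2 it was 0.65 ± 0.12 (SE, limma adjusted p = 0.0211). Slc7a5 (LAT1), the leucine and tryptophan exchanger of proliferating cells, read 172.7, 217.1 and 101.4 units in apoE-/-, against 311.0, 202.7 and 345.0 units in wild type. The groups overlapped, and the log2 change was -0.77 with a 95% interval from -1.44 to -0.10 (limma adjusted p = 0.211). Slc7a8 (LAT2), a related light chain, read 323.9, 232.6 and 367.0 units in apoE-/- against 296.9, 280.2 and 349.4 units in wild type, with overlap (log2 change -0.02, limma adjusted p = 0.965).

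None of the remaining SLC7 genes was called. Of 11 tested SLC7 genes 1 was called, and the family's median log2 change was -0.02. Slc7a2, a cationic amino acid carrier that supplies arginine to macrophages and other cells, read 1802, 1551 and 1684 units in apoE-/-, against 1352, 1276 and 1534 units in wild type. These groups were apart by less than their own ranges (log2 change 0.27 ± 0.11, SE, limma adjusted p = 0.218), and all 4 of its kept probe sets had positive changes, from 0.18 to 0.50. Slc7a1, the general cationic carrier, read 883.4, 885.0 and 705.3 units in apoE-/- against 1071, 886.4 and 974.1 units in wild type (log2 change -0.24, limma adjusted p = 0.351). Slc7a6 (y+LAT2) had a log2 change of -0.12, and Slc7a3, Slc7a4, Slc7a13 and the opposite-strand gene Slc7a6os lay between -0.22 and 0.12. Slc7a11 (xCT), the cystine and glutamate exchanger that feeds glutathione synthesis, was under the filter. Its brighter probe set read 74.7, 54.2 and 21.5 units in apoE-/-, against 12.7, 20.4 and 9.2 units in wild type. The groups did not overlap, although their nearest values almost met, and with no filter the log2 change was 1.06 (limma adjusted p = 0.206). Slc7a12, Slc7a14 and Slc7a15 were under the filter as well.

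Slc3a1 (rBAT), the heavy chain of the cystine and dibasic amino acid exchanger of kidney and gut, was also under the filter. It read 74.3, 101.5 and 106.1 units in apoE-/-, against 23.3, 18.3 and 28.5 units in wild type. Every apoE-/- array was above every wild type array at this low level, and with no filter the log2 change was 1.48 (limma adjusted p = 0.0257). Its light chain Slc7a9 was likewise under the filter, at 75.0, 129.2 and 52.8 units in apoE-/- against 91.6, 99.4 and 130.6 units in wild type, with overlap. No detection calls were used, and it is not shown that these probe sets were above background.

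**Figure D2:**
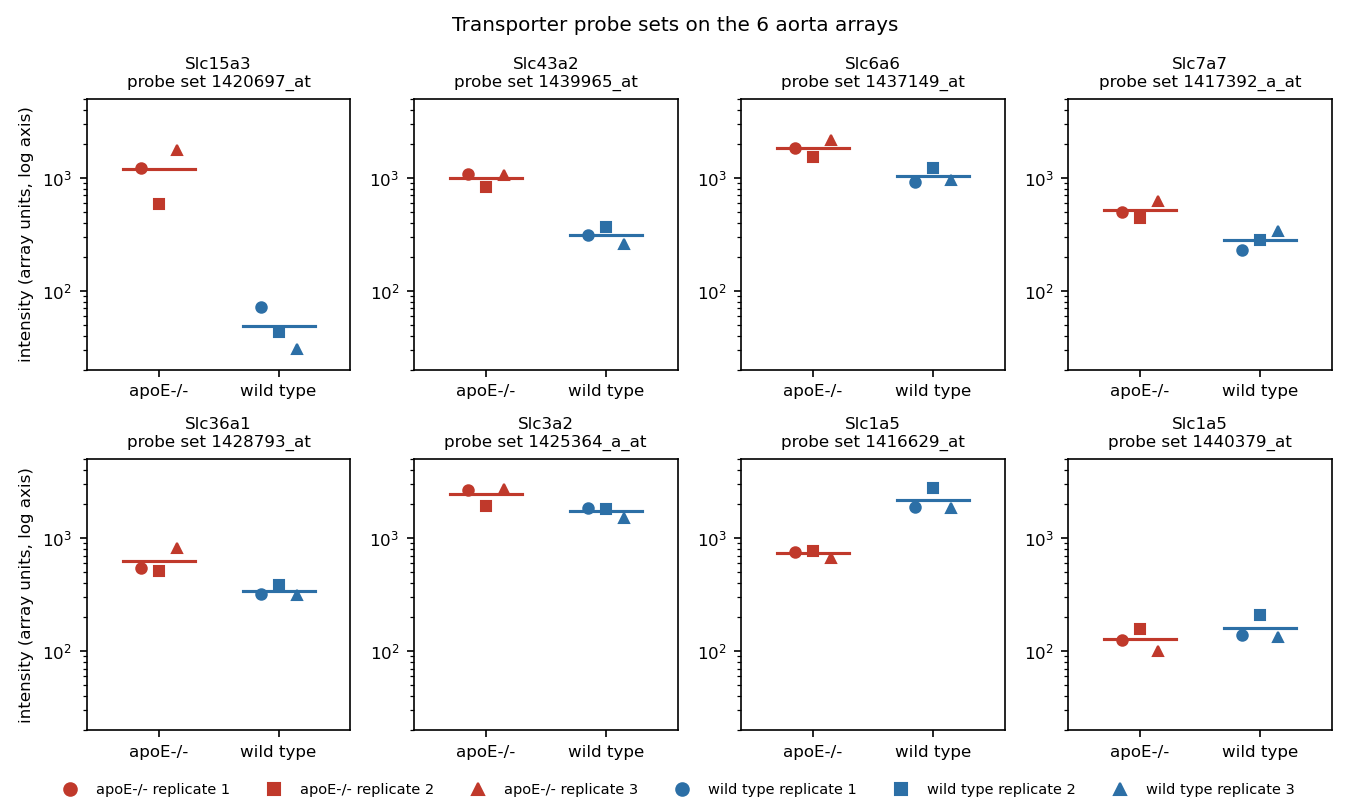
Intensity on each array (log axis, array units) for 8 probe sets of 7 transporter genes, with apoE-/- left of wild type and a line at each group's mean (n = 3). The groups are apart for all but the dimmer Slc1a5 probe set, and apoE-/- replicate 2 is the lowest apoE-/- array for Slc15a3, Slc43a2, Slc6a6, Slc7a7, Slc36a1 and Slc3a2.

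Slc6a6 (TauT), the sodium- and chloride-coupled taurine carrier, rose and was the only 1 of 10 tested SLC6 genes to be called. Its brightest probe set read 1842, 1543 and 2180 units in apoE-/-, against 912.0, 1223 and 951.3 units in wild type. The log2 change was 0.84 ± 0.16 (SE, limma adjusted p = 0.0246). The other kept probe sets read 1109, 675.8 and 811.7 units in apoE-/- against 506.0, 426.9 and 530.0 units in wild type, and 180.9, 186.7 and 175.1 units in apoE-/- against 121.8, 97.0 and 75.1 units in wild type. Groups were apart on all 3 kept probe sets, with log2 changes of 0.84, 0.78 and 0.81, although only the brightest passed over all probe sets. The gene's call held in 9 of 16 alternatives. It was lost without apoE-/- replicate 1 (adjusted p = 0.113), apoE-/- replicate 3 (0.0952), wild type replicate 1 (0.0868) or wild type replicate 3 (0.0894), with log2 changes from 0.72 to 0.84.

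Other SLC6 genes gave no call. Slc6a8, the creatine carrier, read 3284, 2058 and 2786 units in apoE-/- against 2074, 2017 and 2088 units in wild type, so apoE-/- replicate 2 lay among the wild type arrays (log2 change 0.37 ± 0.16, SE, limma adjusted p = 0.258). Its dimmer probe set read 1017, 975.6 and 1531 units in apoE-/- against 716.5, 857.4 and 915.6 units in wild type, with the groups apart (log2 change 0.47 ± 0.18, SE, limma adjusted p = 0.245 over all probe sets). Without apoE-/- replicate 2 the gene's log2 change was 0.55 ± 0.11 (SE, limma adjusted p = 0.0272). Slc6a9 (GlyT1), a glycine carrier, read 1393, 1698 and 1387 units in apoE-/- against 1809, 1815 and 1867 units in wild type, with the groups apart (log2 change -0.30 ± 0.10, SE, limma adjusted p = 0.178). Slc6a21 read 62.9, 100.5 and 93.9 units in apoE-/- against 170.2, 179.1 and 149.8 units in wild type, also apart (log2 change -0.86 ± 0.24, SE, limma adjusted p = 0.105). Its apoE-/- values lie under the mean of 124.15 units at which probe sets were filtered, so the gene passed through its wild type signal. Those apoE-/- values are not shown to be above background. Slc6a21 was tested in only 12 of the alternatives and called in none of them. The noradrenaline carrier Slc6a2 had 4 kept probe sets with changes from -1.36 to -0.07, none of them called. Slc6a3 (the dopamine carrier), Slc6a7, Slc6a17, Slc6a18 and Slc6a19 had log2 changes from -0.23 to 0.00 with overlapping groups. Under the filter on every probe set were the GABA carriers Slc6a11, Slc6a12 and Slc6a13, the serotonin carrier Slc6a4, the glycine carrier Slc6a5, and Slc6a14, Slc6a15, Slc6a16, Slc6a20a, Slc6a20b and the opposite-strand gene Slc6a19os.

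**Figure D3:**
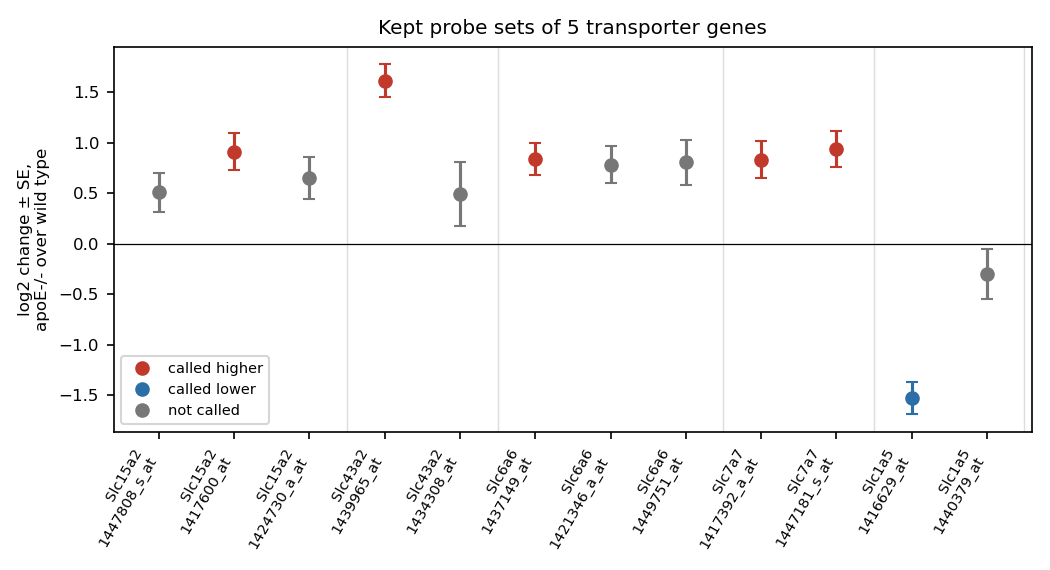
Log2 change ± SE, apoE-/- over wild type, of every kept probe set of 5 transporter genes in the fit over all probe sets (n = 3 arrays each). The 3 Slc6a6 and 2 Slc7a7 probe sets lie close together, between 0.78 and 0.94, whereas the Slc1a5 probe sets lie at -1.53 and -0.30 and the Slc43a2 probe sets at 1.61 and 0.50.

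Slc1a5 (ASCT2), the sodium-coupled exchanger of glutamine, serine and other small neutral amino acids, was the only member called lower. Its brighter probe set read 757.0, 768.0 and 669.7 units in apoE-/-, against 1902, 2764 and 1845 units in wild type. The highest apoE-/- array was well under the lowest wild type array, and wild type replicate 2 was the highest of all. The log2 change was -1.53 ± 0.16 (SE, limma adjusted p = 0.00207), with a 95% interval from -1.89 to -1.16. Without wild type replicate 2 it was -1.34, and the gene was called in all 16 alternatives. The dimmer probe set, the only other for the gene, read 126.5, 155.3 and 100.3 units in apoE-/- against 140.1, 210.4 and 132.6 units in wild type. Its groups overlapped, and its log2 change was -0.30 ± 0.25 (SE, limma adjusted p = 0.604 over all probe sets). With the median of both probe sets the gene's log2 change was -0.91 (limma adjusted p = 0.0331).

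Slc1a5 lies on chromosome 7, as does Apoe, with 82 protein-coding genes between them in the GRCm38.p6 gene table. Of these 82, 45 were tested and limma called 0, beside 3.21% called higher and 0.401% called lower of 11967 genes on other chromosomes. In 14 of the 45 the groups did not overlap, where all tested genes gave 11.0% wholly above and 13.7% wholly below. An unadjusted limma p under 0.05 was reached by 13 of the 45, and no share of other genes at that level is given here. The labels do not say how the apoE-/- line was backcrossed, so position near Apoe and loss of apoE cannot be told apart here. The part of this position in the Slc1a5 result was not tested. The other members on chromosome 7 lie farther from Apoe, on its other side. Slc7a10 and Slc6a21 (407 and 582 protein-coding genes between) were tested and not called, and Slc7a9, Slc6a16 and Slc6a5 were under the filter.

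The other SLC1 genes were not called. Slc1a4 (ASCT1), which shares serine and alanine as substrates with Slc1a5, averaged 375 ± 71.3 units in apoE-/- and 370 ± 18.8 units in wild type (SD, n = 3 each), with a log2 change of 0.00 and a 95% interval from -0.37 to 0.37. Slc1a3 (GLAST), a glutamate carrier best known from glia, read 480.2, 217.8 and 295.8 units in apoE-/- against 406.4, 892.3 and 152.2 units in wild type on its brightest probe set. Its highest and its lowest value were both wild type arrays (log2 change -0.28, 95% interval -1.52 to 0.96). The glutamate carriers Slc1a1, Slc1a2, Slc1a6 and Slc1a7 were under the filter.

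Among lysosomal and proton-coupled carriers, Slc36a1 (PAT1), which moves alanine, glycine and proline with protons across lysosomal and surface membranes, came nearest to a call. It read 542.5, 507.5 and 821.1 units in apoE-/-, against 321.0, 386.0 and 314.6 units in wild type. The groups were apart, with a change of 0.82 ± 0.19 in log2 (SE, limma adjusted p = 0.0579), just outside the threshold where Slc7a7 (0.0459) was just inside it. It was called with array weights (adjusted p = 0.0328) and without apoE-/- replicate 2 (0.0398), and in none of the other 14 alternatives. Slc36a4, a high-affinity carrier of proline and tryptophan, averaged 1169 ± 76.5 units in apoE-/- and 1036 ± 144 units in wild type (SD, n = 3 each). Slc36a3 was lower on every apoE-/- array but not called (log2 change -0.26, limma adjusted p = 0.445), and the opposite-strand gene Slc36a1os was under the filter. Slc38a9, the arginine sensor of the lysosome, had 5 kept probe sets with log2 changes from -0.19 to 0.28, none called, and its brightest read 641.9, 793.2 and 684.2 units in apoE-/- against 852.1, 657.8 and 719.6 units in wild type. Slc38a7, a lysosomal exporter of glutamine and asparagine, read 555.2, 595.4 and 613.8 units in apoE-/- against 657.2, 733.1 and 661.6 units in wild type (log2 change -0.21 ± 0.11, SE, limma adjusted p = 0.339).

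None of the 8 tested SLC38 genes was called by limma, and all 8 log2 changes lay between -0.21 and 0.16. Slc38a2 (SNAT2), the carrier that cells induce when amino acids are scarce, read 5720, 5067 and 5388 units in apoE-/- against 5622, 6733 and 5351 units in wild type. Its log2 change was -0.12 with a 95% interval from -0.37 to 0.12, and its other 2 kept probe sets gave -0.10 and 0.10. Slc38a1 (SNAT1), also a glutamine importer, had a log2 change of -0.05 (95% interval -0.48 to 0.38). Slc38a10 averaged 4033 ± 210 units in apoE-/- and 4384 ± 156 units in wild type (SD, n = 3 each, log2 change -0.12). Slc38a6 averaged 732 ± 74.0 units in apoE-/- and 651 ± 33.9 units in wild type (SD, n = 3 each, log2 change 0.16). Slc38a3 (SNAT3) had a log2 change of 0.16 with a 95% interval from -0.51 to 0.82, and Slc38a5 was under the filter.

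Promoters are shown for Slc43a2 and Slc7a7, which both rose, and for Slc36a1, just outside the threshold, as the 250 bases before the first start listed for each gene in RefSeq (GRCm38.p6, 5′ to 3′ on the gene's strand). A RefSeq promoter was found for 50 of the 68 genes. Capitals mark matches on either strand to GAGGAA, the core of sites for the myeloid factor PU.1, to CACGTG, the E-box core read by TFEB and related lysosomal regulators, to TGANTCA, the AP-1 site, or to TGATGNAA, the amino acid response element read by ATF4. No marked matches overlap.
Slc43a2 (chr11:75531444-75531693, + strand): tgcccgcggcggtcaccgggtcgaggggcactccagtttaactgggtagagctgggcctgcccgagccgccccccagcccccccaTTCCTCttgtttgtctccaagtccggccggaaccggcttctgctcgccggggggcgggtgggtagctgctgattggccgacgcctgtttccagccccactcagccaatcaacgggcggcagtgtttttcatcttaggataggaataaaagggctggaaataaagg
Slc7a7 (chr14:54417945-54418194, - strand): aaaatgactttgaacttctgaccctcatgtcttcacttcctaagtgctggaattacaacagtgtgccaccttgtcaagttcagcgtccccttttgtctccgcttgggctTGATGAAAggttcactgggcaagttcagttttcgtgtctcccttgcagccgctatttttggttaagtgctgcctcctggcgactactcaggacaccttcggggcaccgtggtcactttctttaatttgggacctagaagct
Slc36a1 (chr11:55204090-55204339, + strand): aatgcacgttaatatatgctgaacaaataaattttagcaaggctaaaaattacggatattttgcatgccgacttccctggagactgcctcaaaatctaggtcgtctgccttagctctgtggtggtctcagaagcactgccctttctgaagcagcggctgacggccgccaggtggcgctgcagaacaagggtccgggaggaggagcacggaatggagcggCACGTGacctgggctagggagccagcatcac
The Slc43a2 window holds GAGGAA on the opposite strand (TTCCTC) from 165 to 160 bases before the start, which 23.3% of all 32851 windows of this length also hold. The Slc7a7 window holds an amino acid response element from 141 to 134 bases before the start, a match found in 3.45% of windows. The Slc36a1 window holds an E-box from 31 to 26 bases before the start, a match found in 6.02% of windows. Other listed starts differed. Of the 4 further Slc7a7 windows, 1 held the amino acid response element, 2 held the PU.1 core and 1 held none of the 4 motifs, and neither the second Slc43a2 window nor the only Slc15a2 window held any. A match describes the letters and is not a shown site.

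Some carriers followed single arrays together with markers of other tissues. Slc36a2 (PAT2), a proton-coupled amino acid carrier also used as a surface marker of brown adipocytes, read 1594, 1197 and 1244 units in apoE-/-, against 1023, 3011 and 1328 units in wild type. Slc7a10 (ASC-1), a neutral amino acid exchanger also used as a surface marker of white adipocytes, read 250.2, 228.3 and 222.9 units in apoE-/-, against 246.1, 523.5 and 247.8 units in wild type. Wild type replicate 2 was the highest array for each by a wide margin, and the other 5 arrays lay close together for Slc7a10. On that array Ucp1, the uncoupling protein of brown fat, read 11092 units and Adipoq, the fat cell hormone adiponectin, 9465 units, where the other arrays read 4604 to 8435 and 4273 to 7283 units. Neither Slc36a2 (log2 change -0.26, limma adjusted p = 0.731) nor Slc7a10 (-0.42, limma adjusted p = 0.464) was called. Other members were highest on wild type replicate 2 as well, among them Slc1a3 (892.3 units) and the called Slc1a5 (2764 units). For Slc1a5 the other wild type arrays, at 1902 and 1845 units, were also above every apoE-/- array. The part of fat tissue in the values of these carriers was not tested.

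Slc38a4 (SNAT4), a neutral amino acid carrier strongly expressed in liver, read 52.4, 117.4 and 302.9 units in apoE-/- against 124.8, 93.7 and 155.2 units in wild type. Its dimmer probe set read 20.3, 23.6 and 161.7 units in apoE-/- against 29.7, 25.6 and 35.8 units in wild type, and Slc6a13 (GAT2), a GABA and taurine carrier of liver and meninges, read 27.6, 27.9 and 88.1 units in apoE-/- against 24.6, 18.8 and 19.7 units in wild type. ApoE-/- replicate 3 was the highest array on all 3 probe sets. Albumin (Alb) read 216.4, 350.6 and 6746 units in apoE-/- against 2028, 317.6 and 1587 units in wild type, and transthyretin (Ttr) read 46.1, 97.9 and 9292 units in apoE-/- against 588.6, 117.4 and 751.2 units in wild type. The same array was highest for both liver genes, and the part of liver RNA in the carriers' values was not tested.

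**Figure D4:**
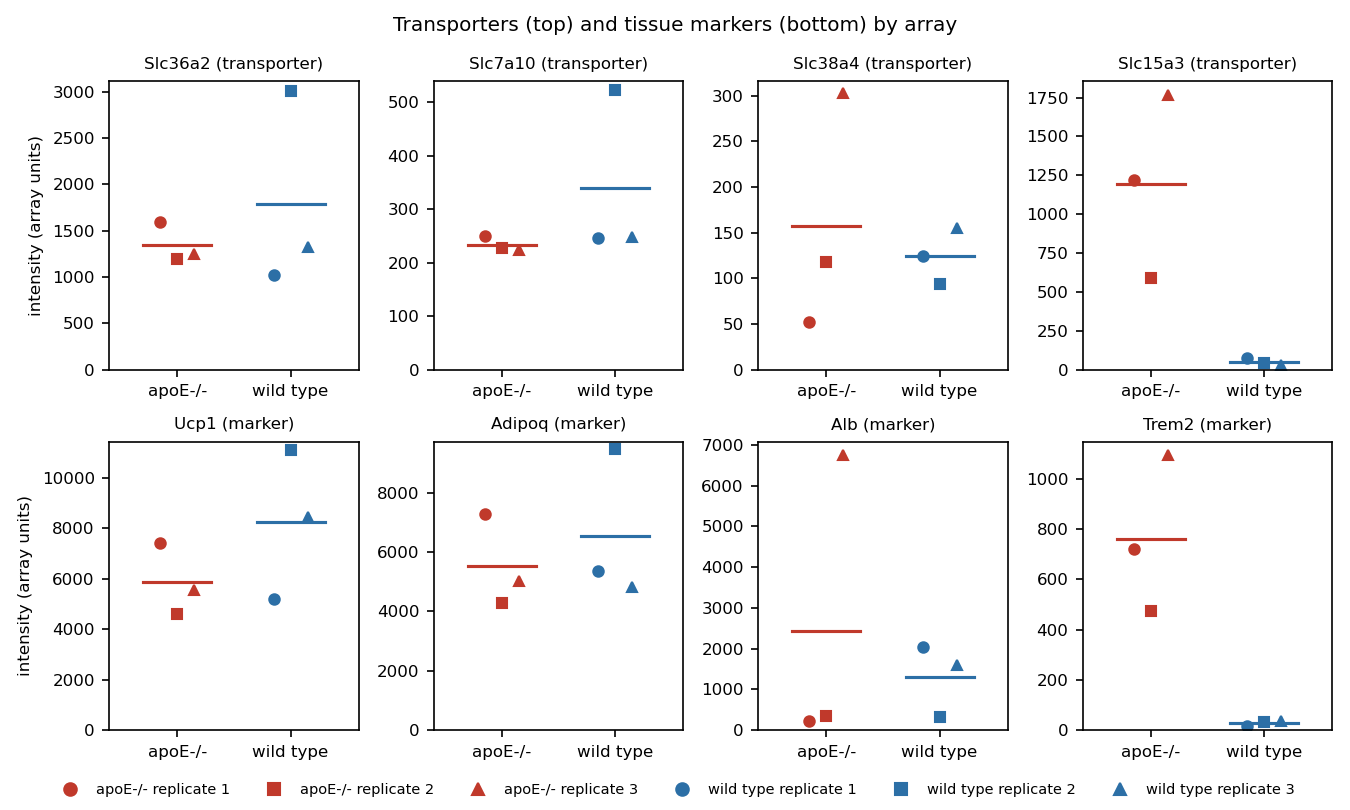
Intensity on each array (linear axis from 0, array units) of 4 transporters above 4 tissue markers, with apoE-/- left of wild type and a line at each group's mean (n = 3). Slc36a2, Slc7a10, Ucp1 and Adipoq share wild type replicate 2 as highest array, Slc38a4 and Alb share apoE-/- replicate 3, and Slc15a3 and Trem2 are high on all 3 apoE-/- arrays.

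Most macrophage markers were called higher in apoE-/- aorta, beside the called rises of the transporters. Of 19 tested macrophage genes 16 were called higher, beside 3.19% of all genes tested. In 18 of the 19 the apoE-/- values lay wholly above the wild type values, beside 11.0% of all genes tested. The summed intensity of the 19 was 74627 to 110381 units in apoE-/-, against 27814 to 33405 units in wild type. Trem2, a lipid receptor of macrophages, read 719.7, 473.9 and 1094 units in apoE-/- against 17.0, 30.7 and 34.0 units in wild type. Its wild type values lie under the mean of 124.15 units at the filter, so it passed through its apoE-/- signal. They are not shown to be above background. Among the apoE-/- arrays, replicate 2 had the lowest value of Trem2 and the lowest macrophage sum. It also had the lowest value of Slc15a3, Slc43a2, Slc6a6 and Slc7a7 on the probe set standing for each gene. On the dimmest kept Slc6a6 probe set it was the highest, at 186.7 units. The Slc15a2 probe set called higher was lowest on replicate 3 (339.9 units, against 350.6 units on replicate 2). The other kept Slc15a2 probe sets were highest on replicate 2, at 417.7 and 351.6 units. A lowest value on replicate 2 was not particular to macrophage markers. Replicate 2 also had the lowest apoE-/- sum of fibroblast (95232 units) and brown adipocyte markers (13221 units), whereas other marker sums were lowest on replicate 1 or 3. The fibroblast sum was 95232 to 116558 units in apoE-/- against 89465 to 93284 units in wild type. The part of macrophage content in these rises was not tested. Of the macrophage genes not called, Csf1r, the receptor of a macrophage growth factor, had a log2 change of 0.50 (limma adjusted p = 0.0995) and Mertk, a receptor for dying cells, of 0.12 (limma adjusted p = 0.5). Cd36, a receptor for oxidised lipoprotein and fatty acids, read 5187, 4051 and 6324 units in apoE-/- against 3252, 6950 and 3431 units in wild type, with overlap and wild type replicate 2 highest (log2 change 0.26, limma adjusted p = 0.672).

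Genes that work with these carriers changed in a few places. Of 10 tested partners of endolysosomal peptide and nucleic acid sensing, 2 were called higher and none lower. In 8 the groups were wholly apart with apoE-/- above, and the list median was 0.62 in log2. All genes tested gave 3.19% called higher, 11.0% wholly above and a median of -0.05. Tlr13, a receptor for bacterial RNA, read 487.2, 416.0 and 640.4 units in apoE-/- against 154.4, 158.4 and 166.4 units in wild type (log2 change 1.57 ± 0.18, SE, limma adjusted p = 0.00294). Unc93b1, the chaperone that brings such receptors to endolysosomes, averaged 1305 ± 192 units in apoE-/- and 699 ± 90.6 units in wild type (SD, n = 3 each, log2 change 0.88 ± 0.14, SE, limma adjusted p = 0.0129). Irf5, a transcription factor activated downstream of Slc15a4, had a change of 1.04 ± 0.24 in log2 (SE, limma adjusted p = 0.0553). Of 17 other tested carriers of amino acids and lysosomal solutes, 2 were called higher and none lower, for a median of 0.10. They were Mfsd12, which takes cysteine into lysosomes and melanosomes (0.88 ± 0.18, SE, limma adjusted p = 0.0336), and Slc29a3, a lysosomal nucleoside carrier (0.66 ± 0.14, SE, limma adjusted p = 0.0378). Among the apoE-/- arrays, replicate 2 was the lowest for Tlr13, Irf5, Mfsd12 and Slc29a3, as for the macrophage sum, and replicate 1 for Unc93b1. The part of macrophage content in these changes was not tested.

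Genes that respond to or use amino acids gave no call, where 3.65% of all 13052 genes tested were called in either direction. At that share a list this short can hold no called gene. The counts at an unadjusted p have no share over all genes beside them here. None of 22 tested genes of the ATF4 amino acid response was called by limma (3 had an unadjusted p under 0.05), with a median log2 change of 0.03. The smallest p was that of Ddit4, an inhibitor of the growth kinase mTOR, at 948.9, 861.2 and 500.9 units in apoE-/- against 342.9, 264.7 and 426.8 units in wild type (log2 change 1.10 ± 0.26, SE, limma adjusted p = 0.0559). None of 18 tested cytosolic aminoacyl-tRNA synthetase genes was called (0 at an unadjusted p under 0.05), with a median of -0.01, and Vars, the valine enzyme, had the smallest p (log2 change 0.30, limma adjusted p = 0.308). Of 23 tested enzymes of amino acid metabolism none was called by limma (3 at an unadjusted p under 0.05), and Got1, the cytosolic aspartate aminotransferase, had the smallest p (0.51 ± 0.16, SE, limma adjusted p = 0.133). Of 28 tested genes of lysosomal amino acid sensing none was called by limma (5 at an unadjusted p under 0.05). Fnip2, a partner of the nutrient sensor folliculin, had the smallest p, with 1242, 1424 and 2141 units in apoE-/- against 888.5, 898.5 and 909.2 units in wild type (log2 change 0.78 ± 0.18, SE, limma adjusted p = 0.0556). Mtor itself had a change of -0.35 ± 0.11 in log2 (SE, limma adjusted p = 0.146).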

How the data were processed

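Gene expression in aorta was measured on 6 arrays, 3 apoE-/- and 3 wild type. The deposited table holds 1 linear intensity per probe set and array, and these values share a trimmed mean of 500.002 units on every array, so they were scaled before deposit; the scanning and scaling software is not given in sources used here, and no detection calls were used. Names came from the platform annotation, which can be old, where 34958 probe sets had 1 symbol, 932 had several (not used) and the rest were unnamed here. Symbols were updated through gene identifiers of the GRCm38.p6 table, which held 34754 of them.

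Values were taken as log2(intensity + 16), so fold changes of dim genes are understated. The 64 control probe sets and the lower 40% of the others by mean over all arrays were left out, which kept 27022. Each gene was represented by its brightest kept probe set, and a fit with 1 row per probe set was run beside it. The comparison used limma 3.58.1 (R 4.3.3) with lmFit and a trended eBayes, genotype being the only term, and every adjusted p is Benjamini-Hochberg over all genes or probe sets tested. A 95% interval is that of the fit for 1 gene. An exact permutation test of 3 against 3 cannot go below p = 0.1 (two-sided), so none was run. The 6 arrays set the precision. Probe sets differ in brightness for reasons other than RNA amount, so no level was compared between genes.

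The members, the gene lists and the rules for naming genes were chosen with earlier results of these data known. By the rule, values on every array are given for members called in either fit, every Slc1a5 probe set and 10 transporters named whether called or not, with others by counts or where their family needs them, and each pathway list gives up to 4 called genes or the 1 of smallest p. Genes given array by array or by name beyond the rule (Slc43a1, Slc7a1, Slc7a2, Slc7a9, Slc7a10, Slc3a1, Slc6a8, Slc6a9, Slc6a13, Slc6a21, Slc36a1, Slc36a2, Slc38a4, Slc38a7, Slc38a9, Csf1r, Cd36, Mertk, Irf5, Mtor, Ttr and the marker genes shown) were chosen after their values were seen. Alternatives were log offsets of 1 and 64, quantile normalization, median centring, a 60% filter or none, array weights, no intensity trend, a replicate block, the median over each gene's kept probe sets, and leaving out each array in turn.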

Additional observations from a re-analysis of the deposited data

How the results depend on the processing

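Slc15a3, Slc43a2 and Slc1a5 were called in the same direction under all 16 alternatives, with log2 changes of 3.38 to 4.58, 1.055 to 1.74 and -1.63 to -0.91. Over all members, 680 repeats of a single gene or Slc1a5 probe set kept their side of the threshold, 15 lost a call, all of them of Slc6a6 or Slc7a7, and 4 gained one. Leaving out each array in turn gave 135 to 551 genes and 267 to 877 probe sets called higher, 9 to 138 genes and 19 to 210 probe sets called lower, 2 to 7 transporter genes and 2 to 9 transporter probe sets called higher, and 1 of each called lower every time. Without the intensity trend, 273 genes and 430 probe sets were called higher and 24 and 29 lower, with 2 transporter genes higher. Array weights gave 118 genes and 117 probe sets called lower, median centring 40 genes called lower, and no filter 3 transporter probe sets called higher, where more probe sets were tested. Main counts were 416 genes and 678 probe sets higher and 61 and 76 lower. The causes of these shifts were not tested. Same-numbered arrays of the 2 groups did not deviate together (correlations of -0.12, -0.16 and -0.03). The labels name no pairing or batch, and 3 arrays per group are too few to show whether same-numbered arrays shared one. With the replicate block, 18 genes and 32 probe sets were called lower, and 2 transporter genes and 2 transporter probe sets higher, and the calls of Slc6a6, Slc7a7 and the Slc15a2 probe set were lost. Signal near background limits the dim members, since 25 of the 68 genes had no probe set above the filter.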
